A study of Mus musculus with 6 samples.

Results

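The genes described here belong to glycosyltransferase families that build mucin-type O-glycans and the branches and caps of N-glycans. Some members act on glycolipids or proteoglycans instead, and C1galt1c1 is a chaperone. The rule that selects the genes reads the gene symbol alone, though the families were picked with earlier results of these data known. The genes comprise 76 of the 24067 in the deposited expression table. The set holds 16 polypeptide GalNAc-transferases (Galnt), 2 C1galt genes, 5 Gcnt genes, 9 B3gnt genes, 7 B4galt genes, 9 Mgat genes, 8 fucosyltransferases (Fut) and 20 sialyltransferases (6 St3gal, 2 St6gal, 6 St6galnac and 6 St8sia genes). Symbols were compared with RefSeq by gene identifier and all 76 matched, with 1 difference. The gene listed as B3gnt1 is now called B4gat1, an enzyme of the glycan on dystroglycan, and it is counted here under its deposited symbol.

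RNA was labelled as submandibular gland at embryonic day 13 (E13) of the ICR mouse strain, when the epithelium of the gland is a branching bud. The control group and the group treated with blebbistatin, a small molecule that inhibits the motor of non-muscle myosin II, had 3 libraries each. The comparison bears on gene expression under block of myosin II. No genetic alteration is named for either group, and the sources used here do not give dose, duration, vehicle or how many glands went into a library. Epithelial buds are named in the series title and the gland in the tissue label, and the labels do not settle which was profiled. In every library the sum of mesenchymal markers lay far below that of epithelial markers, as given below. No label ties the libraries of a group to separate cultures or litters, so every p-value rests on the spread between libraries, and that spread may be technical.

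Mucin-type O-glycosylation begins when a Galnt enzyme attaches GalNAc to serine or threonine of a protein passing through the Golgi. C1galt1, which folds only with its chaperone C1galt1c1 (Cosmc), extends that sugar to the core 1 structure, Gcnt enzymes branch it, and sialyltransferases cap it. N-glycans are attached in the endoplasmic reticulum, branched in the Golgi by Mgat enzymes, extended by B3gnt and B4galt enzymes and decorated by Fut and sialyltransferase enzymes. In the mouse submandibular gland Galnt1 is the best known of these genes, since its loss impairs the secretion of basement membrane proteins and growth factor signalling during branching.

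The 3 upstream windows printed next are shown because they mark where the transcripts discussed below begin: the 2 alternative starts of Mgat4a, whose transcript shares did not overlap between the groups, and the start of St6galnac4, an O-glycan sialyltransferase whose treated mean was 56.1% of control. Each is the 250 bases before the annotated start, read 5′ to 3′ on the gene's strand from RefSeq promoter windows of build GRCm38.p6. Capitals mark the GC box GGGCGG on either strand, and in the second sequence the CAG at its end.
Mgat4a NM_173870 (chr1:37541017-37541266, minus strand): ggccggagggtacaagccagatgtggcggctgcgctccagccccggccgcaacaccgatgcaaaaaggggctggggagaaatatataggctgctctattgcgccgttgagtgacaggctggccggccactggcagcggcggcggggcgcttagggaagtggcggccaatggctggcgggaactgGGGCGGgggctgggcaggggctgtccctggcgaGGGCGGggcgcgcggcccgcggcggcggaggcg
Mgat4a NM_001290801 (chr1:37536405-37536654, minus strand): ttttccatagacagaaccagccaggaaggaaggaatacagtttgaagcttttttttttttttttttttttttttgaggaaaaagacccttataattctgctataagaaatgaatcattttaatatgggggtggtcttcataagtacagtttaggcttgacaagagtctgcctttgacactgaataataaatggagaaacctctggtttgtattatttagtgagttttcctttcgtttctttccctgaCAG
St6galnac4 NM_011373 (chr2:32586828-32587077, plus strand): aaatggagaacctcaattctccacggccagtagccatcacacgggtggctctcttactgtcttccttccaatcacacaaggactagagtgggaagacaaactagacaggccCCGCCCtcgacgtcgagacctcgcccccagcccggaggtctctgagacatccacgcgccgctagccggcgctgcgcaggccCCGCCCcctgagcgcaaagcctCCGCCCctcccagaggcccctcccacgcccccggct
The window of Mgat4a NM_173870 had 72.4% GC, 26 CpG and 2 GC boxes. The window of Mgat4a NM_001290801 had 33.6% GC, 1 CpG and no GC box, and it ended in CAG directly before an exon that both transcripts share, as the end of an intron does. The St6galnac4 window had 65.2% GC, 19 CpG and 3 GC boxes. Windows were found for 54 of the 76 genes (77 windows). The GC box GGGCGG on either strand stood in 54.5% of them, beside 32.7% of all 32851 windows. The TATA box letters TATAAA stood in 2.6% against 12.4%, and GGAATG, the core bound by TEAD factors, in 15.6% against 12.6%. These are matches of letters, and binding was not measured.

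Levels are FPKM, fragments scaled by transcript length and library total, so they can be compared between genes. Of the 76 genes, 24 had a mean of at least 10 FPKM over the 6 libraries, 23 lay between 1 and 10, and 29 lay under 1 FPKM. Of these 29, 18 lay under 0.1 FPKM, and Galnt15 and Mgat4c were listed at 0 in every library. The 47 genes with a mean of at least 1 FPKM were tested. Just inside that limit lay St6galnac3 (mean 1.15 FPKM) and B3gnt9 (1.30 FPKM), and just outside it B3gnt4 (0.710 FPKM) and B3gnt5 (0.697 FPKM). The most abundant members were Galnt2, which starts O-glycans, with a mean of 63.5 FPKM, St6gal1, which caps N-glycans with sialic acid, with 59.0 FPKM, and Mgat4b, an N-glycan branching enzyme, with 37.1 FPKM.

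The libraries held an estimated 29300000 to 35700000 fragments, and between 11453 and 11592 genes reached 1 FPKM. Between libraries, Pearson's r over genes, which are not independent, was 0.971 to 0.983. Epithelial markers (10 of 10 detected) summed to 1427 to 1785 FPKM in controls and 1375 to 1789 FPKM in treated libraries. Within that list the basal keratin Krt15 had a treated mean at 192% of control and Krt14 at 138%, both with overlapping groups. The basal keratin Krt5 went the other way, with a mean of 20.9 FPKM in controls and 18.8 FPKM after blebbistatin, also with overlap. The 9 mesenchymal markers summed to 5.68 to 21.5 and 4.38 to 9.24 FPKM, with control replicate 1 the highest, and the 6 endothelial markers to 7.93 to 8.51 and 3.98 to 8.48 FPKM. Most of the endothelial sum was Eng, and Cdh5, Kdr and Tie1 stayed under 0.1 FPKM in every library, whereas Tek (0.193 to 0.220 FPKM in controls, 0.362 to 0.375 after blebbistatin) and Pecam1 (0.303 to 0.382 and 0.422 to 0.553 FPKM) were higher in every treated library. The 4 skeletal muscle markers summed to 0.235 to 2.54 FPKM in controls and 0 to 0.0954 FPKM in treated libraries, without overlap. Erythroid markers, chiefly globins, varied from 1.93 to 194 FPKM in controls and from 1.11 to 60.0 FPKM in treated libraries. In bulk RNA fewer cells of a type and less RNA per cell cannot be told apart, and the part of these cell types in the values below was not tested.

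Across the 47 tested glycosyltransferases no gene passed an adjusted p of 0.05 in limma, beside 0.078% of all 11540 tested genes, and the lowest adjusted p was 0.169. The count over all genes was 9 and lay between 1 and 19 when a single library was left out, lowest without control replicate 1 and highest without blebbistatin replicate 3. At an unadjusted p under 0.05 there were 10 members (21.3%), 2 with a higher and 8 with a lower mean after blebbistatin, beside 9.36% of all tested genes (4.46% higher and 4.9% lower). The 3 treated libraries lay wholly above the 3 controls for 4 members and wholly below them for 10, together 29.8%, beside 14.3% of all tested genes (7.48% higher and 6.8% lower). Of the 4, St6galnac3 passed the limit for testing only through the treated group, since its control mean was 0.910 FPKM. The treated mean was lower for 34 of the 47 members (72.3%), with a median log2 difference of -0.07, beside 44.8% and a median of 0.01 over all tested genes. No tested member changed direction under quantile normalization or under median-of-ratios rescaling. The members differ in level and share libraries, so these shares are descriptions and not tests of the set.

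**Figure D1:**
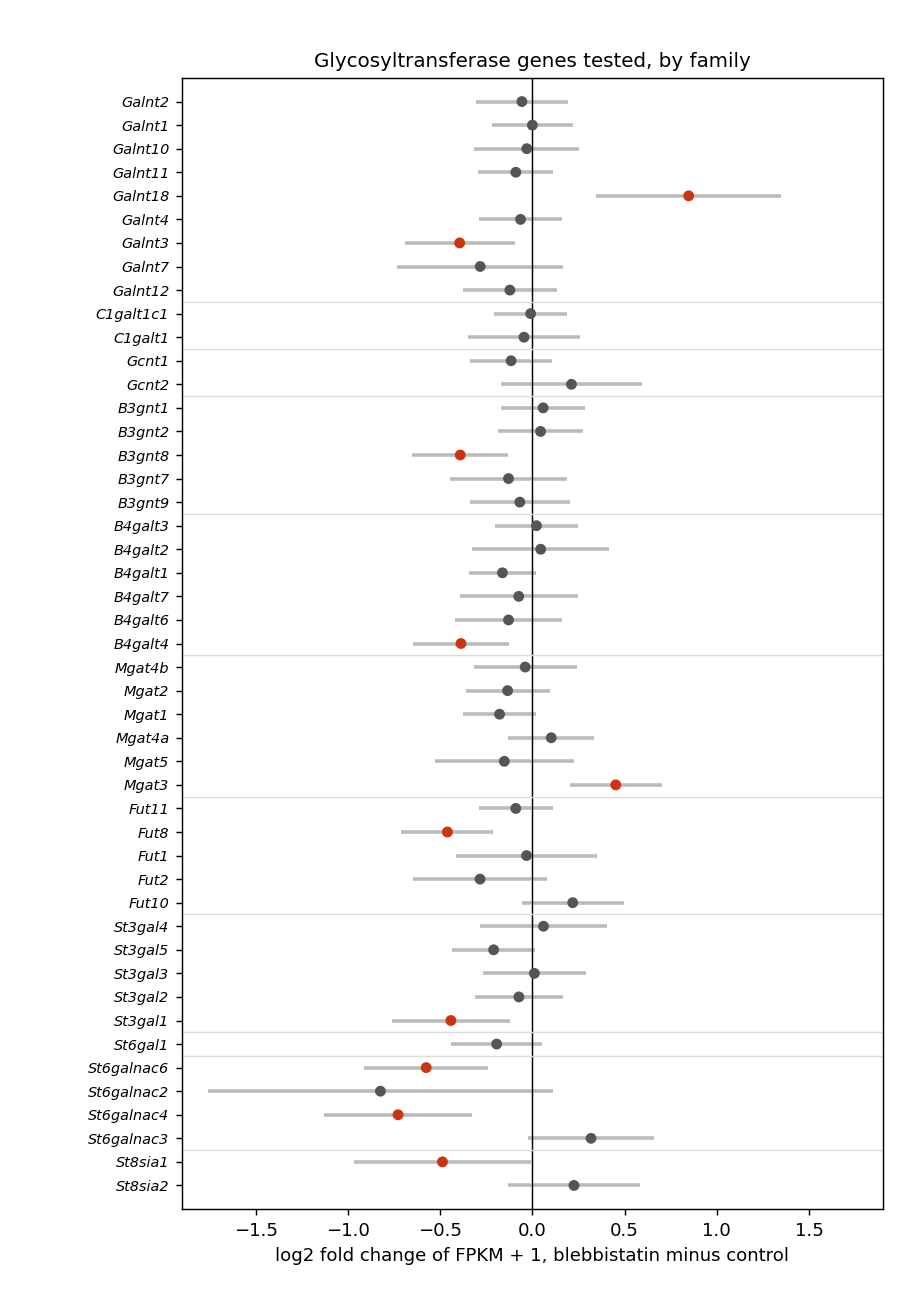
Difference between blebbistatin and control for the 47 tested glycosyltransferase genes, as log2 of FPKM + 1 on the horizontal axis, grouped by family and ordered by level within each family; bars are 95% confidence intervals and red points are the 10 genes at an unadjusted p under 0.05. Most points lie left of 0, Galnt1 lies on it, and Galnt18 and Mgat3 are the red points to the right.

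The plot of differences by family shows that most intervals cross 0, and that the widest is that of St6galnac2, whose SE was 0.41 beside a median of 0.12 over the tested members. Differences are given as log2(FPKM + 1), blebbistatin minus control, with the moderated standard error (SE) from limma, and this scale understates the change of genes near 1 FPKM. Levels are given as mean ± SD over n = 3 libraries. Library values are listed for replicates 1, 2 and 3 of each group.

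The initiating family as a whole stood at the same summed level in both groups. The 16 Galnt genes summed to 167 ± 9.79 FPKM in controls and 167 ± 9.65 FPKM after blebbistatin, and of the 9 tested members 8 had a lower and 1 a higher mean, with a median log2 difference of -0.06. Galnt1 (chr18:24205344-24286816, plus strand, mm10) measured 25.7, 29.8 and 26.2 FPKM in controls and 25.2, 28.7 and 27.7 FPKM in treated libraries. The values of the 2 groups interleaved. Its mean was 27.2 ± 2.25 FPKM in controls and 27.2 ± 1.81 FPKM after blebbistatin, and the 95% confidence interval of the log2 difference ran from -0.22 to 0.22, which is 0.859-fold to 1.16-fold. The SE was 0.10 and the adjusted p in limma was 1.00. Galnt1 made up 16.3 ± 1.31% of the family's FPKM in controls and 16.4 ± 1.81% after blebbistatin.

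The 2 Galnt1 transcripts differ in their first exon and share the coding sequence. The more abundant, NM_001160404, held 86.6 ± 1.51% of the gene's FPKM in controls and 86.6 ± 1.72% after blebbistatin, so neither the level nor the start of Galnt1 separated the groups. Galnt2, which like Galnt1 acts on a broad range of proteins, measured 69.2, 65.9 and 58.9 FPKM in controls and 68.3, 62.6 and 55.8 FPKM after blebbistatin, with a log2 difference of -0.06 and an adjusted p of 0.991. Galnt10, which prefers substrates that already carry GalNAc, stood at 26.4 ± 2.85 and 25.9 ± 3.69 FPKM. Galnt4 had 9.26 ± 1.01 and 8.79 ± 0.405 FPKM, and Galnt11 had a log2 difference of -0.09 with overlapping groups.

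Galnt18 (chr7:111471661-111779977, minus strand), a member of the subfamily with little activity in enzyme assays, had the largest positive log2 difference of the 47 members. It measured 11.1, 6.004 and 8.17 FPKM in controls and 20.2, 12.6 and 14.6 FPKM after blebbistatin. Every treated library lay above every control, and blebbistatin replicate 1 was the highest. The mean was 8.41 ± 2.53 FPKM in controls and 15.8 ± 3.92 FPKM after blebbistatin, a ratio of 1.88, with a log2 difference of 0.85 (SE 0.22, 95% interval 0.34 to 1.35). The unadjusted p was 0.00453 and the adjusted p in limma was 0.198. Its order of libraries within each group was that of Krt15. Krt15 measured 38.3, 15.6 and 19.7 FPKM in controls and 70.0, 27.4 and 43.7 FPKM after blebbistatin. The basal keratins Krt14 and Krt5 had that order in controls but not after blebbistatin. There Krt14 measured 236, 208 and 135 FPKM, and Krt5 30.2, 14.3 and 11.9 FPKM. The part of basal cells in the Galnt18 values was not tested. Its share of the Galnt family was 5.03 ± 1.46% in controls and 9.45 ± 1.96% after blebbistatin. With the replicate number as a block, Galnt18 was the 1 member past the threshold, at an adjusted p of 0.0183 in limma. That block passed 144 of the 11540 tested genes, beside 9 in the main fit. The 1 call among 47 members is therefore not read as a result about the members. Over the alternatives the adjusted p of Galnt18 ranged from 0.0183 to 0.429. The labels do not say that equal numbers mark paired glands.

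Galnt3, which initiates O-glycans in secretory epithelia, had the opposite sign. It measured 6.58, 9.18 and 7.04 FPKM in controls and 5.23, 6.18 and 5.10 FPKM after blebbistatin, so that the groups did not overlap. The log2 difference was -0.39 (SE 0.13) with an adjusted p of 0.321. Galnt7, which extends existing GalNAc sites, and Galnt12 had means of 6.37 and 3.45 FPKM in controls and 5.08 and 3.08 FPKM after blebbistatin, with overlapping groups. The other 7 Galnt genes stayed under 1 FPKM.

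**Figure D2:**
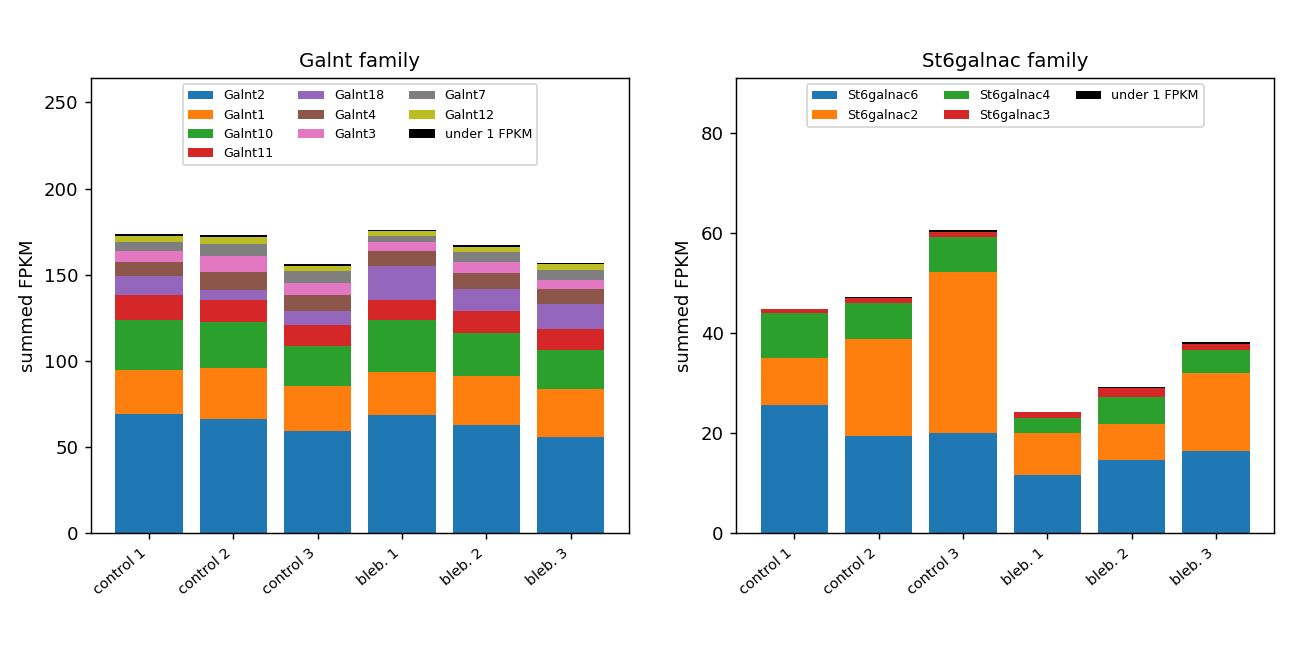
Summed FPKM (vertical axis) of the Galnt family and of the St6galnac family in each of the 6 libraries, with 1 colour per gene and the members under 1 FPKM together in black. The Galnt sums are alike in the 2 groups while the Galnt18 layer is thicker in the treated libraries, and every treated St6galnac sum lies below every control sum.

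The genes that extend and branch the O-glycan core showed small differences. C1galt1, the core 1 synthase, stood at 2.54 ± 0.282 FPKM in controls and 2.45 ± 0.482 FPKM after blebbistatin (log2 difference -0.05, SE 0.13, adjusted p 0.997). Its chaperone C1galt1c1 stood at 11.4 ± 0.501 and 11.3 ± 0.759 FPKM (log2 difference -0.01, SE 0.09, adjusted p 0.999). Both means lay within the spread of the libraries. Gcnt1, which makes the core 2 branch, had 6.68 ± 0.655 FPKM in controls and 6.08 ± 0.331 FPKM after blebbistatin, with an adjusted p of 0.899. Gcnt2, which branches polylactosamine chains, measured 1.72, 2.01 and 1.65 FPKM in controls and 2.86, 2.49 and 1.502 FPKM after blebbistatin. Its treated libraries fell on both sides of the controls, and the adjusted p was 0.870. Gcnt3, Gcnt4 and Gcnt7 stayed under 0.1 FPKM.

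Many B3gnt and B4galt enzymes add GlcNAc and galactose in turn to lengthen chains. The 9 B3gnt genes summed to 43.8 ± 2.82 FPKM in controls and 44.3 ± 0.644 FPKM after blebbistatin, and the 7 B4galt genes to 87.2 ± 5.53 and 83.1 ± 4.73 FPKM. The gene listed as B3gnt1, now B4gat1 and an enzyme of the glycan on dystroglycan, held much of the B3gnt sum. Its part was 49.7 ± 2.30% in controls and 51.3 ± 3.15% after blebbistatin. Among their 11 tested members, 2 had an unadjusted p under 0.05, both with lower treated means (beside 4.9% of all tested genes). B3gnt8, which primes polylactosamine on branched N-glycans, measured 2.64, 2.03 and 2.62 FPKM in controls and 1.67, 1.67 and 1.49 FPKM after blebbistatin, with a log2 difference of -0.39 (SE 0.11) and an adjusted p of 0.259. B4galt4, a galactosyltransferase, measured 4.92, 4.92 and 4.25 FPKM in controls and 2.85, 3.80 and 3.45 FPKM after blebbistatin, with a log2 difference of -0.39 (SE 0.11) and the same adjusted p of 0.259. Neither gene's groups overlapped. The more abundant relatives differed less. B3gnt2, the main polylactosamine enzyme, stood at 14.8 ± 0.729 and 15.4 ± 1.76 FPKM, the gene listed as B3gnt1 at 21.8 ± 2.34 and 22.7 ± 1.19 FPKM (log2 difference 0.06, adjusted p 0.987), and B4galt3 at 23.5 ± 1.28 and 23.9 ± 2.41 FPKM (log2 difference 0.02, adjusted p 0.999). B4galt1, the widely expressed galactosyltransferase that also forms lactose synthase, had 18.8 ± 0.637 FPKM in controls and 16.7 ± 0.655 FPKM after blebbistatin without overlap, at an adjusted p of 0.618. B4galt6, a lactosylceramide synthase, had 10.9 ± 1.68 and 9.82 ± 1.10 FPKM, and B4galt7, which builds the linker of proteoglycans, had 11.02 ± 2.33 and 10.3 ± 0.819 FPKM.

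B3gnt5, which starts lacto-series glycolipids, lay under the limit for testing but was separated between the groups. It measured 0.533, 0.551 and 0.488 FPKM in controls and 0.994, 0.785 and 0.828 FPKM after blebbistatin. Of the 29 untested members, 2 others did not overlap, St8sia3 with higher and St8sia5 with lower treated values, each under 0.1 FPKM in every library. The 3 genes stand beside 10.4% without overlap among the 6868 genes above 0 with a mean under 1 FPKM, so the count is near the background.

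In the Mgat family, which sets the number of N-glycan branches, the summed level was 116 ± 7.94 FPKM in controls and 111 ± 7.32 FPKM after blebbistatin. Mgat3 (chr15:80173721-80215519, plus strand), which adds the bisecting GlcNAc that stops further branching, was the member of the family with the smallest p. It measured 4.61, 3.71 and 3.68 FPKM in controls and 6.33, 5.40 and 5.76 FPKM after blebbistatin. The lowest treated library exceeded the highest control. The mean was 4.001 ± 0.532 FPKM in controls and 5.83 ± 0.469 FPKM after blebbistatin, a ratio of 1.46, with a log2 difference of 0.45 (SE 0.11, 95% interval 0.20 to 0.70) and an adjusted p of 0.170. It made up 3.45 ± 0.269% of the family sum in controls and 5.26 ± 0.359% after blebbistatin.

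The other branching enzymes had small differences of either sign. Mgat1, which opens the path to complex N-glycans, stood at 20.5 ± 1.52 FPKM in controls and 18.01 ± 0.496 FPKM after blebbistatin, without overlap and with an adjusted p of 0.613. Mgat2 stood at 31.5 ± 2.69 and 28.6 ± 2.19 FPKM, and Mgat5, whose branch carries polylactosamine, at 8.16 ± 1.95 and 7.17 ± 1.07 FPKM, both with overlap. Mgat4b had 37.7 ± 4.99 FPKM in controls and 36.6 ± 3.89 FPKM after blebbistatin (adjusted p 0.998). Its relative Mgat4a had 13.2 ± 0.522 and 14.3 ± 1.74 FPKM (adjusted p 0.945).

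Fut8 (chr12:77238104-77475996, plus strand), the only enzyme known to add the core fucose of N-glycans, had the smallest unadjusted p of all 47 members, 0.0027. It measured 7.83, 7.90 and 6.70 FPKM in controls and 5.04, 5.86 and 4.61 FPKM after blebbistatin. Every treated library lay below every control. The treated mean of 5.17 ± 0.636 FPKM was 69.1% of the control mean of 7.48 ± 0.671 FPKM, with a log2 difference of -0.46 (SE 0.11, 95% interval -0.71 to -0.21) and an adjusted p of 0.169. Most of that difference was assigned to a non-coding transcript, described with the transcripts.

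The 8 Fut genes summed to 24.5 ± 1.05 FPKM in controls and 21.3 ± 1.17 FPKM after blebbistatin, and the share of Fut8 in that sum was 30.5 ± 1.74% and 24.2 ± 1.83%. Other fucosyltransferases were less separated. Fut11, the most abundant of the family, had 10.5 ± 0.559 FPKM in controls and 9.77 ± 0.639 FPKM after blebbistatin (adjusted p 0.943). Fut1 and Fut2, which add the fucose of blood group H structures, had means of 3.26 and 1.81 FPKM in controls and 3.14 and 1.32 FPKM after blebbistatin, with overlap. Fut10 measured 0.980, 1.20 and 1.30 FPKM in controls and 1.73, 1.51 and 1.31 FPKM after blebbistatin, groups that touch without crossing, at an adjusted p of 0.695. Fut4, Fut7 and Fut9, which build Lewis-type structures, stayed under 1 FPKM.

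Of the 20 sialyltransferases, 12 were tested, and 8 had lower and 4 higher treated means, with a median log2 difference of -0.20. Of these, 4 had an unadjusted p under 0.05, all with lower treated means (beside 4.9% of all tested genes), and none passed the adjusted threshold in limma. The other 35 tested glycosyltransferases had a median of -0.07, with 26 lower and 9 higher means. The difference between these medians was not tested.

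St6galnac enzymes, which add sialic acid to the GalNAc of O-glycans and to some gangliosides, had the lowest family sum relative to control. The sums were 44.9, 47.3 and 60.7 FPKM in controls and 24.3, 29.1 and 38.2 FPKM after blebbistatin, so that the treated mean of 30.5 ± 7.06 FPKM was 60.0% of the control mean of 50.9 ± 8.54 FPKM. St6galnac4 (chr2:32587078-32599696, plus strand), which acts on sialylated core 1, measured 8.97, 7.22 and 6.90 FPKM in controls and 3.01, 5.34 and 4.61 FPKM after blebbistatin. Its treated mean of 4.32 ± 1.19 FPKM was 56.1% of the control mean of 7.70 ± 1.11 FPKM, with a log2 difference of -0.73 (SE 0.17, 95% interval -1.13 to -0.33) and an adjusted p of 0.170. The highest treated library lay below the lowest control.

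St6galnac6 (chr2:32599709-32620809, plus strand), which sialylates gangliosides, measured 25.6, 19.4 and 20.1 FPKM in controls and 11.7, 14.7 and 16.4 FPKM after blebbistatin. The groups did not overlap, and blebbistatin replicate 1 was the lowest library for both genes. The mean was 21.7 ± 3.39 FPKM in controls and 14.3 ± 2.42 FPKM after blebbistatin, 65.7% of control, with a log2 difference of -0.58 (SE 0.15) and an adjusted p of 0.196. St6galnac2, an O-glycan sialyltransferase, contributed most of the spread in the family sum and also much of its lower treated mean. Its mean was 20.3 ± 11.4 FPKM in controls and 10.4 ± 4.53 FPKM after blebbistatin. It measured 9.48, 19.4 and 32.1 FPKM in controls and 8.44, 7.17 and 15.6 FPKM after blebbistatin, and the groups overlapped. Its log2 difference of -0.82 had an SE of 0.41 and an adjusted p of 0.625. St6galnac3, the least abundant tested member, measured 0.698, 0.942 and 1.09 FPKM in controls and 1.11, 1.81 and 1.26 FPKM after blebbistatin, with an adjusted p of 0.579. Its control mean of 0.910 FPKM lay under the limit of 1 FPKM, so it was tested only through its treated group. St6galnac1, which makes the sialyl-Tn antigen, stayed under 1 FPKM.

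St6galnac4 and St6galnac6 are the only members whose annotated spans neighbour each other, on the same strand and 12 nt apart. Of the 7 annotated St6galnac6 transcripts, 6 start 7.29 kb after the end of St6galnac4. The remaining transcript, NM_001025311, starts 12 nt after that end and was assigned 0.000267, 0.000212 and 1.98 FPKM in controls and 0.000665, 1.35 and 1.86 FPKM after blebbistatin. It lay near 0 in 3 of 6 libraries and had no lower mean after treatment. The other St6galnac6 transcripts and both St6galnac4 transcripts had lower treated means. NM_001289548 of St6galnac6 had the smallest p of all member transcripts, with 2.12, 2.08 and 1.38 FPKM in controls and 0.536, 0.657 and 0.909 FPKM after blebbistatin, a log2 difference of -0.75 (SE 0.17) and an adjusted p of 0.273 over all transcripts. NM_011373 of St6galnac4, whose start is printed above, had 4.89, 3.04 and 3.78 FPKM in controls and 1.88, 2.37 and 2.18 FPKM after blebbistatin, with a log2 difference of -0.63 (SE 0.16) and an adjusted p of 0.321. The St6galnac4 exons do not overlap those of St6galnac6.

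**Figure D3:**
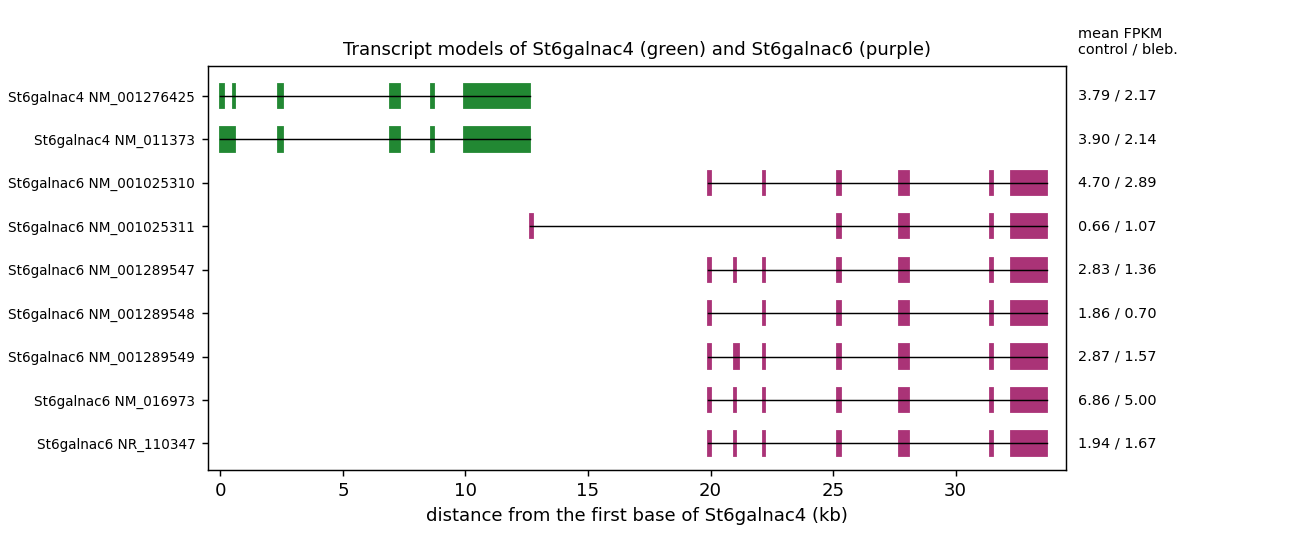
Annotated transcript models of St6galnac4 (green) and St6galnac6 (purple) along the distance in kb from the first base of St6galnac4, with boxes for exons, and the mean FPKM of each transcript in controls and after blebbistatin at the right. All models except NM_001025311 have a lower mean after blebbistatin, and that model is the only St6galnac6 transcript that begins at the end of St6galnac4.

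The remaining sialyltransferases included 2 with an unadjusted p under 0.05. St3gal1, which caps core 1 O-glycans, measured 2.38, 3.49 and 2.48 FPKM in controls and 1.4997, 1.93 and 1.88 FPKM after blebbistatin. The groups did not overlap, and the log2 difference was -0.44 (SE 0.14) with an adjusted p of 0.294. St8sia1, which makes disialylated gangliosides, measured 8.47, 15.2 and 10.04 FPKM in controls and 6.11, 9.30 and 7.39 FPKM after blebbistatin. Its groups overlapped, since blebbistatin replicate 2 exceeded control replicate 1, and the log2 difference was -0.49 (SE 0.21, adjusted p 0.519). Exons of St8sia1 share 149 nt with Gm7457 on the opposite strand, and those of St3gal4 share 83 nt with 4930581F22Rik, so reads there cannot be assigned without strand.

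The 6 St8sia genes summed to 14.4 ± 4.26 FPKM in controls and 10.7 ± 1.42 FPKM after blebbistatin, and the 6 St3gal genes to 56.5 ± 2.38 and 54.0 ± 6.75 FPKM. The abundant sialyltransferases were less separated. St6gal1 measured 68.2, 66.0 and 55.0 FPKM in controls and 51.3, 56.1 and 57.1 FPKM after blebbistatin, which overlapped through control replicate 3, with a log2 difference of -0.19 (SE 0.11) and an adjusted p of 0.695. St3gal4, which caps galactose on N- and O-glycans, measured 17.6, 18.5 and 19.6 FPKM in controls and 24.5, 19.1 and 15.5 FPKM after blebbistatin, with treated libraries on both sides of the controls and an adjusted p of 0.997. St3gal5, which makes the simplest ganglioside, had 17.2 ± 1.74 FPKM in controls and 14.7 ± 0.844 FPKM after blebbistatin without overlap, at an adjusted p of 0.578. St3gal2 and St3gal3 had log2 differences of -0.07 and 0.01. St8sia2, a polysialyltransferase, had 1.74 ± 0.279 and 2.23 ± 0.640 FPKM.

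**Figure D4:**
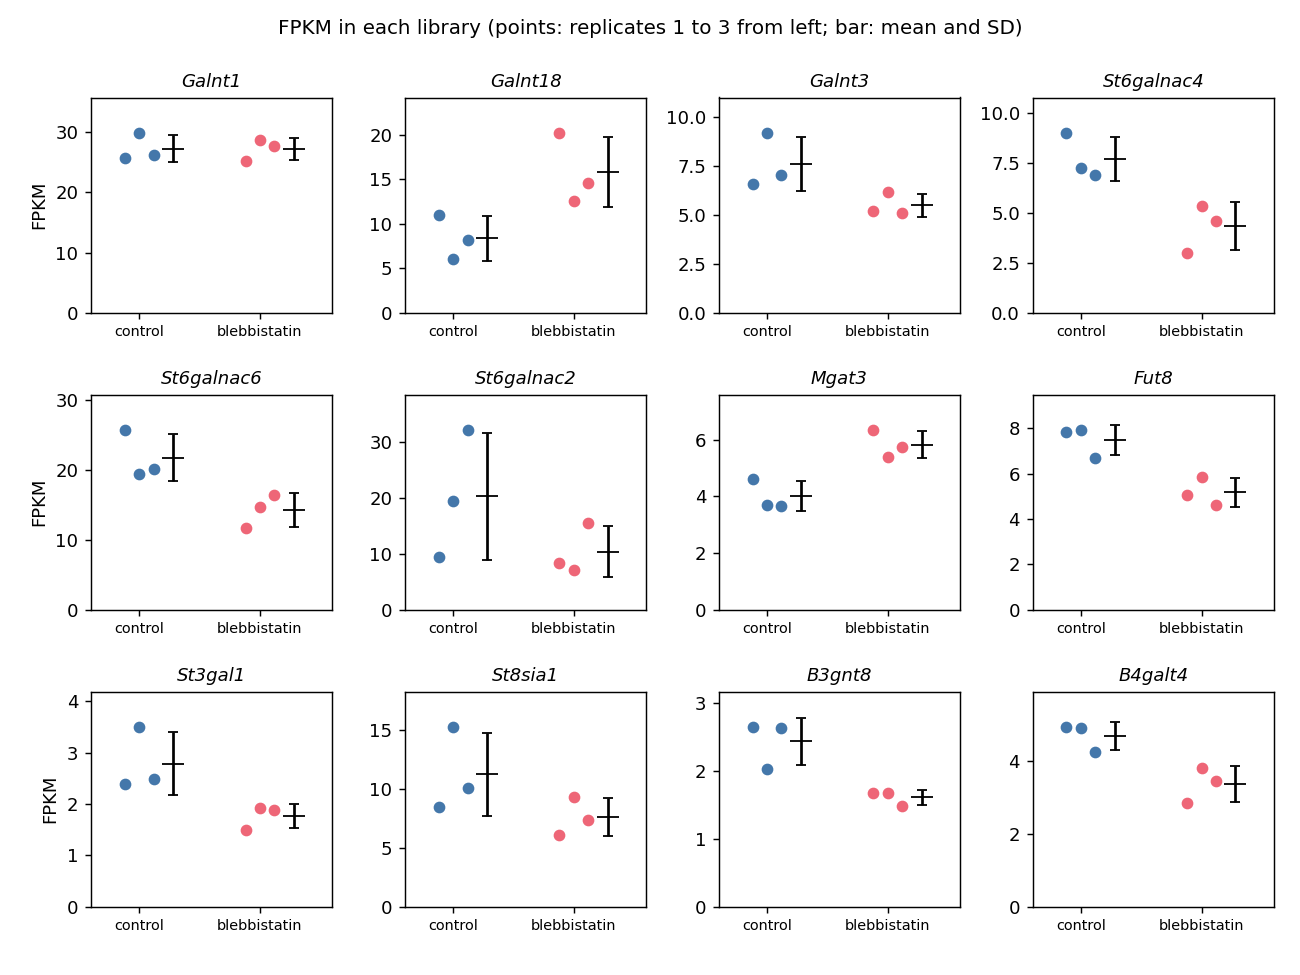
FPKM of Galnt1, of the 10 glycosyltransferase genes at an unadjusted p under 0.05 and of St6galnac2 in each library (points, replicates 1 to 3 from left to right) with the mean and SD of each group; each panel has its own axis from 0. Galnt1 values interleave, Galnt18 and Mgat3 are higher in all treated libraries, and St8sia1 and St6galnac2 are the panels with lower treated means in which the groups overlap.

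The panels by library show that blebbistatin replicate 1 lay farthest from the controls for Galnt18, Mgat3, B4galt4, St6galnac4, St6galnac6, St3gal1 and St8sia1. For Galnt3, Fut8 and B3gnt8 it was blebbistatin replicate 3. Leaving out blebbistatin replicate 1 left the direction of all 10 genes as it was. The log2 difference of Galnt18 was 0.67 without it, in a range of 0.65 to 1.04 over the removal of single libraries. B4galt4 was at -0.30 and Mgat3 at 0.40 without it. The ranges over single libraries were 0.40 to 0.54 for Mgat3, -0.54 to -0.39 for Fut8, -0.87 to -0.54 for St6galnac4 and -0.68 to -0.45 for St6galnac6.

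Transcripts of the same gene were compared to see whether the balance of starts or splice forms differed. The 76 genes had 133 annotated transcripts, and 27 genes had more than 1 listed under the same symbol. Mgat4e also had 2, but they are listed under different symbols, so it is not among the 27. Of 67 tested member transcripts from 45 genes, none passed an adjusted p of 0.05 in limma, beside 0.00692% of all 14460 tested transcripts. At an unadjusted p under 0.05, 4 were higher and 11 lower after blebbistatin (22.4%), beside 8.08% of all tested transcripts (3.8% higher and 4.28% lower). Of 32 transcript shares from 11 genes, none passed the adjusted threshold, beside 0% of all 4997 shares, and 2 higher and 3 lower shares had an unadjusted p under 0.05 (15.6%, beside 4.56% of all shares, 2.14% higher and 2.42% lower). The shares of 1 gene sum to 100%, so they are not independent.

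Mgat4a (chr1:37439340-37541016, minus strand) had the largest shift of a share among the member genes tested for it. NM_001290801, which begins at the second exon of the longer form, measured 2.04, 3.56 and 3.97 FPKM in controls and 8.06, 5.56 and 5.33 FPKM after blebbistatin. Its share of the gene was 15.3, 26.02 and 31.4% in controls and 50.0, 44.0 and 37.5% after blebbistatin, so that every treated share exceeded every control share. The mean share was 24.2 ± 8.19% in controls and 43.8 ± 6.24% after blebbistatin. The unadjusted p of the share was 0.00926 and its adjusted p in limma was 0.975. The other form, NM_173870, measured 11.3, 10.1 and 8.68 FPKM in controls and 8.06, 7.08 and 8.88 FPKM after blebbistatin, and the gene total did not separate the groups. The models differ by a first exon of 52 nt and by 27 coding nt in 7251 nt, so the assignment rests on few bases. The first exon that only NM_173870 holds lies directly after the GC-rich window printed above.

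Fut8, St6gal1 and St6galnac6 had the other shares at an unadjusted p under 0.05 in limma. For St6galnac6 it was NM_001289548, with 8.62 ± 1.95% in controls and 4.86 ± 0.580% after blebbistatin, without overlap (unadjusted p 0.0408, adjusted p 0.975). The non-coding Fut8 transcript NR_045554 measured 2.91, 2.96 and 2.00 FPKM in controls and 1.29, 1.60 and 0.769 FPKM after blebbistatin, and its share was 34.8 ± 4.39% in controls and 23.2 ± 5.70% after blebbistatin (adjusted p 0.975). Its mean was 2.62 FPKM in controls and 1.22 FPKM after blebbistatin. The main coding transcripts had overlapping groups, with means of 2.79 and 2.25 FPKM for NM_016893 and of 1.80 and 1.67 FPKM for NM_001252616, so most of the lower gene level lay in the non-coding form as the authors' estimates assign it. For St6gal1, whose 3 transcripts share 1 coding sequence and differ in their starts, the least abundant form NM_001252506 held 6.72 ± 2.30% in controls and 12.9 ± 3.28% after blebbistatin (adjusted p 0.975). NM_001252505 stood at 21.1 ± 1.19 FPKM in controls and 15.8 ± 2.39 FPKM after blebbistatin without overlap (adjusted p 0.385).

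**Figure D5:**
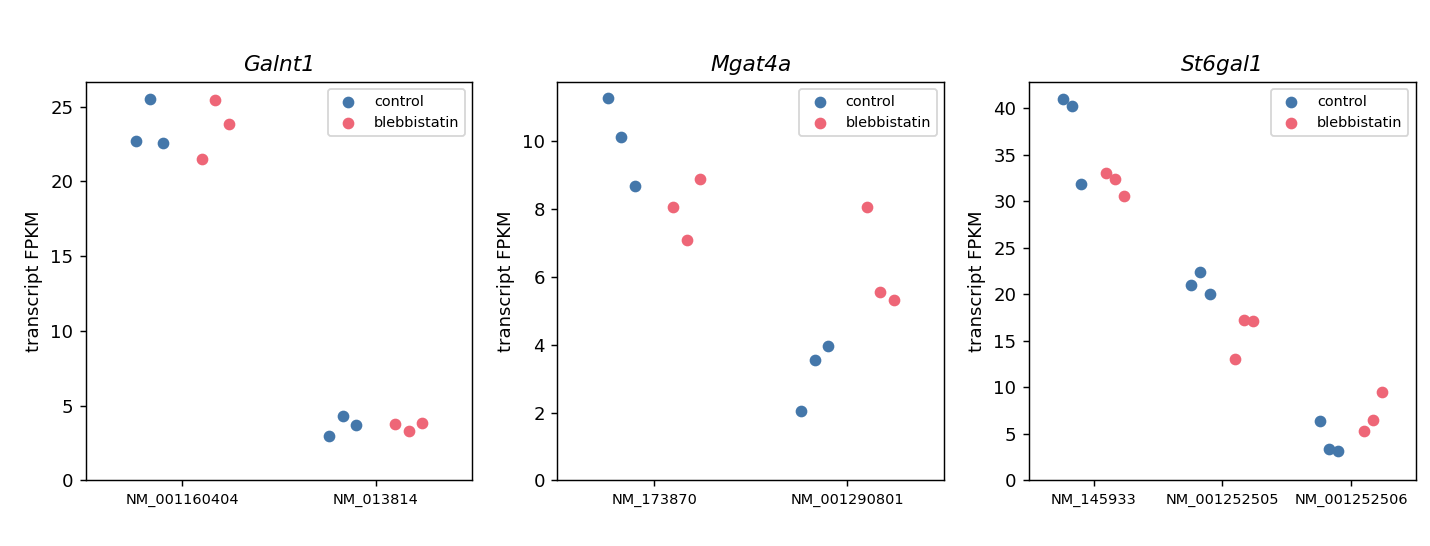
FPKM of the transcripts of Galnt1, Mgat4a and St6gal1 in each control library (blue) and each blebbistatin library (red), with replicates 1 to 3 from left to right. The 2 Galnt1 forms keep their order and level in both groups, while the treated values of Mgat4a NM_001290801 all lie above the controls.

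Genes that supply or precede these enzymes were read from the same fit. None of the genes in 6 lists of the glycosylation pathway passed an adjusted p of 0.05 in limma. Assembly of the N-glycan precursor had 19 tested genes, 12 with higher and 7 with lower treated means, and a median log2 difference of 0.01. None of them had an unadjusted p under 0.05, beside 9.36% of all tested genes. The 12 subunits of the oligosaccharyltransferase, which transfers the precursor to protein, had 7 higher and 5 lower means, also none at an unadjusted p under 0.05, and a median of 0.03. The 11 trimming enzymes had 5 higher and 6 lower means, none at an unadjusted p under 0.05, and a median of -0.06. Among them Prkcsh, the regulatory subunit of glucosidase II, had the smallest p, with 90.4 ± 3.31 FPKM in controls and 79.9 ± 1.27 FPKM after blebbistatin (log2 difference -0.18, SE 0.08, adjusted p 0.578). The smallest p in the first list was that of Alg13 (adjusted p 0.640), and in the second that of Dad1 (adjusted p 0.934).

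Sugar nucleotide supply had 22 tested genes of 23, 7 with higher and 15 with lower means, and a median of -0.03. Of these, 1 had an unadjusted p under 0.05, a share under the 9.36% of all tested genes. That gene was Gne, the enzyme that begins the synthesis of sialic acid. It measured 81.0, 99.5 and 94.5 FPKM in controls and 44.0, 67.9 and 73.3 FPKM after blebbistatin, without overlap. The mean was 91.7 ± 9.59 FPKM in controls and 61.7 ± 15.6 FPKM after blebbistatin, with a log2 difference of -0.59 (SE 0.19) and an adjusted p of 0.295. The later steps of that route had smaller differences: Nans stood at 33.8 ± 2.66 and 30.8 ± 2.78 FPKM, Cmas, which activates sialic acid, at 102 ± 10.2 and 91.2 ± 0.268 FPKM, and Slc35a1, which carries it into the Golgi, at 7.90 ± 0.298 and 7.99 ± 0.944 FPKM.

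A list of 41 glycosyltransferases outside these families had 29 tested genes, 11 with higher and 18 with lower means, 3 of them at an unadjusted p under 0.05, a share near the 9.36% of all tested genes, and all 3 with lower means. The median was -0.04. Lfng, the fringe enzyme that modifies Notch, had the smallest p, with 112, 83.6 and 78.0 FPKM in controls and 67.0, 67.3 and 62.8 FPKM after blebbistatin (log2 difference -0.45, SE 0.14, adjusted p 0.283). Its 3 treated libraries lay close together below the controls. Of the 20 mucins and mucin-type carriers found, 4 were tested, 2 with higher and 2 with lower means. Among the higher, 1 had an unadjusted p under 0.05, beside 9.36% of all tested genes. That gene was Pdpn, a membrane mucoprotein, with 54.4 ± 7.04 FPKM in controls and 67.3 ± 8.72 FPKM after blebbistatin (log2 difference 0.30, SE 0.13, adjusted p 0.526). The secreted mucins Muc2, Muc5ac, Muc5b and Muc6 stayed under 0.1 FPKM, Muc19 measured 0.253, 0.594 and 0.992 FPKM in controls and 0.680, 0.205 and 0.185 FPKM after blebbistatin with overlap, and Muc1 stood at 0.334 ± 0.0404 and 0.415 ± 0.202 FPKM.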

How the data were processed

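RNA-seq of 6 libraries was analysed from the deposited gene and transcript tables. Per the file headers, the deposited values are FPKM from the authors. TopHat2 2.0.13, Bowtie2 2.2.3, Cufflinks 2.2.1 and build mm10 are named in the submitters' processing notes. No source used here says if strand was kept. The deposited transcript lengths and RefSeq exon coordinates, per the file headers, gave positions in mm10, counted from 1. Columns were matched by name, with BB read as blebbistatin and the column without a number as replicate 1.

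FPKM are not counts, so genes with a mean of at least 1 FPKM over the 6 libraries were put on the log2(FPKM + 1) scale and tested in R 4.3.3 with limma 3.58.1, with a mean-variance trend, the treatment as the only term, and Benjamini-Hochberg adjustment over all genes tested at a threshold of 0.05. Transcripts were tested alike. Transcript shares were tested on the arcsine square root scale, taking genes of at least 2 transcripts whose sum averaged 5 FPKM or more and shares between 0.05 and 0.95. The test was checked on simulated data. Depth was estimated from the FPKM that 1 fragment is worth in genes of 1 transcript; between 80.1% and 84.8% of low values were whole fragments to within 0.05.

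The members and gene lists were chosen with earlier results of these data known. Named genes are Galnt1, C1galt1 and C1galt1c1, in each family the most abundant member and that with the smallest p, every member at an unadjusted p under 0.05, the smallest p of each pathway list, and the 3 transcripts with the smallest p in each transcript test. Other members are described to account for their families. Alternatives changed the pseudocount, filter, scaling, library weights, replicate block and libraries used.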

Additional observations from a re-analysis of the deposited data

How the results depend on the processing

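Over all genes, the count past the adjusted threshold was 9 as reported, 1 unfiltered, 27 at a minimum mean of 5 FPKM, 14 with quantile normalization, 2 with median-of-ratios rescaling, 57 with array weights and 144 with the replicate block. When single libraries were left out it ranged from 1 to 19: 1 without control replicate 1, 2 without control replicate 2 and also without blebbistatin replicate 1, then 4 and 19 without the other treated replicates, the highest being without blebbistatin replicate 3. Among the glycosyltransferases, that count stayed 0 in limma except with the replicate block, where it was 1 (Galnt18, log2 0.85). The labels do not say that equal numbers pair libraries. Deviations of same-numbered libraries correlated at 0.18, 0.094 and 0.25, and each library correlated best with its own number, a hint from the data and not from the design. The count at an unadjusted p under 0.05 in limma was 10 as reported, beside 9.36% of all tested genes. It was 6 at a minimum of 5 FPKM, 17 with the replicate block and 10 to 11 without single libraries. The count of members without overlap was 14, beside 14.3% of all tested genes, with 8 at a minimum of 5 FPKM and 15 to 21 without single libraries. Groups with fewer libraries separate more easily. Shares over all genes at the other settings are not given here, so shifts in these counts are not read as results about the members. Signs turned for 7 named genes, all with log2 differences near 0, and for the median over all genes (-0.0056 to 0.031 without single libraries). Galnt1 gave 4.6e-06 with a pseudocount of 0.1 and 0.019 with array weights, which also gave 0.0024 for C1galt1, 0.00039 for Mgat4b and -0.024 for St3gal4. Without single libraries the ranges were -0.040 to 0.065 for Galnt1, -0.054 to 0.078 for B4galt3, -0.13 to 0.071 for C1galt1, -0.057 to 0.029 for C1galt1c1, -0.13 to 0.019 for Galnt2, -0.12 to 0.060 for Mgat4b and -0.10 to 0.21 for St3gal4. The cause was not tested. With 3 libraries a group, the median SE of the tested members was 0.12 on the log2 scale, which limits the size of difference that can pass.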
